A study of Mus musculus with 9 samples.

Results

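The primary cilium is a single antenna-like projection of the cell surface, and nearly every tubular epithelial cell of the kidney carries one. It is built by intraflagellar transport (IFT), in which trains of IFT-B and IFT-A proteins are carried outwards by kinesin motors and back by a dynein motor, while the BBSome and small GTPases sort membrane cargo and the transition zone gates the base. The polycystins and fibrocystin act at this organelle, and inherited loss of them, or of many transport and transition zone proteins, causes cystic or fibrotic kidney disease. Genes of this group were compared between kidneys of 4 young (3 months) and 5 old (16 months) wild-type mice, to see which of them differ with age when no mutation is present.

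Members were taken by symbol: IFT, BBS, nephronophthisis, polycystin, fibrocystin, dynein (Dync2) and heterotrimeric kinesin genes, plus a set of named transition zone, basal body and GTPase genes. The table listed 47 members among 13081 genes, and all 47 passed the filter on low values, which asked for 10 or more normalised counts in 4 or more libraries. Another 10 symbols that fit the pattern in the mouse annotation were not listed in the table and were not analysed here (among them Bbs12, Bbs5, Pkd2l1 and Ttc21a). Bbs7 passed only through the young libraries and Alms1 only through the old, so the lower level of Bbs7 and the higher level of Alms1 in the other age were part of how they entered. All 9 kidneys were wild type, with no treatment, strain or sex given in the labels. Every young title begins with YAA and every old title with YRN, so age and any difference in preparation or sequencing between the prefixes cannot be told apart.

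Total reads in the table ran from 4486406 to 6355095 per library, and 3336 to 4718 of them fell on the members. That was 0.0735% to 0.0791% of the reads in young and 0.0694% to 0.0799% in old libraries, so the summed share overlapped between ages. In normalised counts, the members summed to 3637 to 3916 in young and 3649 to 4103 in old libraries, also with overlap. Without Ift20, which fell, the sum was 2791 to 3001 normalised counts in young and 3273 to 3809 in old libraries. Leaving out a member that fell moves the old sums up against the young ones by construction, and Arl3, which rose, was kept. In a library, 3 reads corresponded to 2.46 to 3.54 normalised counts. In whole kidney, fewer cells of a type and less RNA per cell cannot be told apart. Reads came from transcript 3′ ends, so levels are compared between ages for 1 gene and not between genes.

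A gene was called when its adjusted p-value in limma, fitted to all 12667 genes that passed the filter, was under 0.05. Of the 47 members, 28 were called (59.6%), 18 higher and 10 lower in old kidneys. Over all genes tested 59.7% were called, 29.2% higher and 30.5% lower, so the share of members called was that of the whole table. The median log2 fold change of the members was 0.29, against -0.00 over all genes. The values of the ages did not overlap in 22 members, and they did not overlap in 49.0% of all genes. With the mitochondrial genes removed and the other genes scaled to equal totals, the median over all genes moved to 0.13, and 21 members were higher and 9 lower.

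The IFT, motor, BBSome and GTPase groups each held both rises and falls. Among 11 IFT-B members 5 were higher and 2 lower, and among 4 IFT-A members 2 were higher and 1 lower. The 8 motor genes split into 2 higher and 2 lower, and the 7 BBSome and chaperonin genes into 2 higher and 3 lower. Of 6 transition zone genes described here 3 were higher and 0 lower. Of the 3 ciliary GTPases 1 was higher and 1 lower, and neither of the 2 basal body genes was called.

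**Figure D1:**
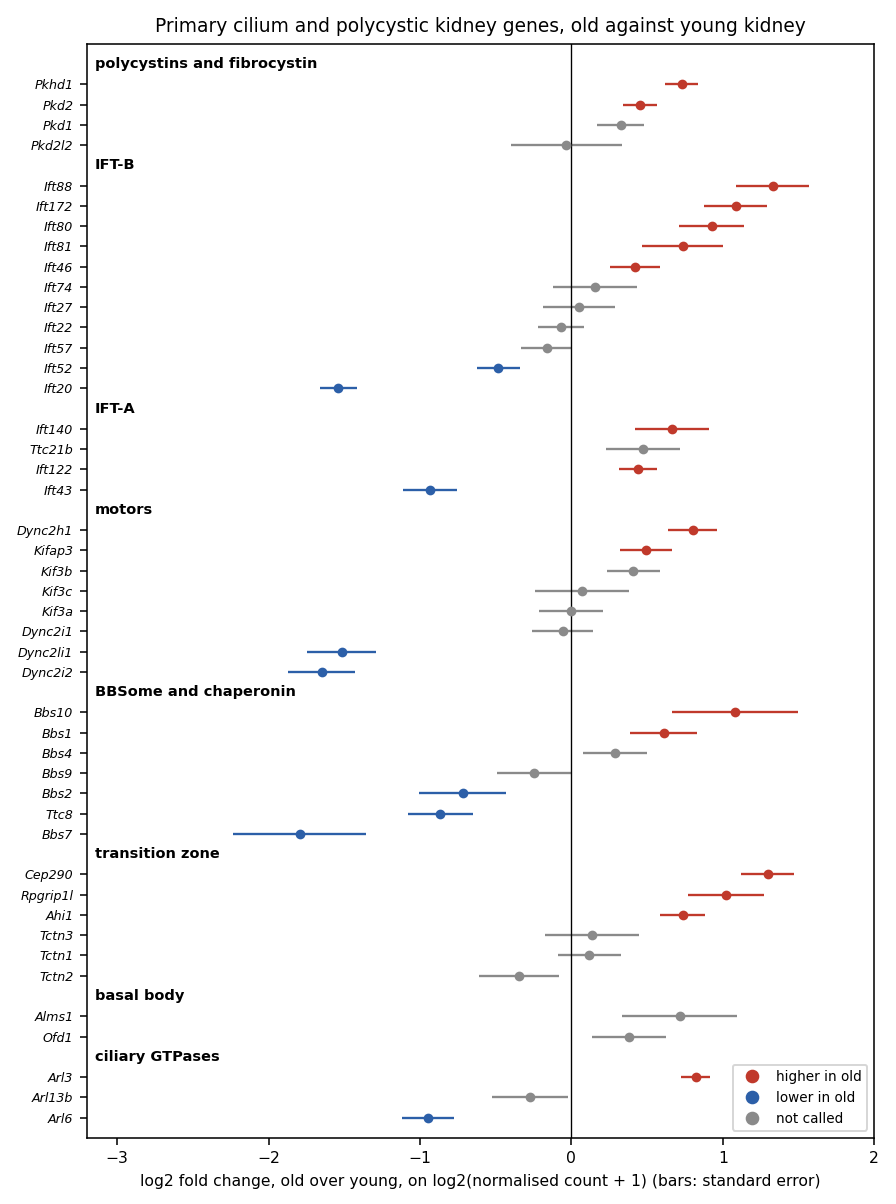
Log2 fold change of old over young kidneys (x axis, on log2(normalised count + 1)) for 45 members, grouped by complex, with the standard error as bars. Red points are the 17 of these called higher in old, blue points the 9 called lower and grey points the 19 not called, and the IFT, motor, BBSome and GTPase groups have called points on both sides.

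Promoter sequence is shown for members that carry the X-box, the inverted repeat bound by RFX transcription factors, which are known regulators of ciliary genes. It was searched as GTTNCC followed by 0 to 3 bases and GGNAAC, a pattern that reads the same on both strands, in RefSeq promoters on GRCm38.p6. A promoter sequence was found for 40 members, and 5 of them (12.5%) held the repeat, against 253 of 27025 mouse promoters (0.936%). Windows of 30 bases follow, written 5′ to 3′ on the strand of the gene with the repeat in capitals.
Ahi1 (chr10:20952560-20952589, + strand): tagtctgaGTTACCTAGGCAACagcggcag
Bbs7 (chr3:36613489-36613518, - strand): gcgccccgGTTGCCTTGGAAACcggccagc
Ift57 (chr16:49699226-49699255, + strand): gccctgcgGTTGCCTGGTAACggtggggac
Tctn1 (chr5:122264411-122264440, - strand): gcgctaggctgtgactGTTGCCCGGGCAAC
Tctn3 (chr19:40612350-40612379, - strand): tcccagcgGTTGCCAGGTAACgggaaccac

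The first base of the repeat lay 60 bases before the start site of the RefSeq promoter table in Ift57, 121 in Bbs7 and 140 in Tctn3, and at base 22 after it in Ahi1 and base 37 in Tctn1. GENCODE vM21 places some starts elsewhere, and in Ift57 the repeat then lies just inside the gene. With the repeat in common, these 5 genes had different outcomes: Ahi1 was higher in old kidneys, Bbs7 was lower, and Ift57, Tctn1 and Tctn3 were not called. The single half-site GTTGCC or GTTACC, on either strand and including the repeats above, was in 18 of 40 member promoters (45.0%) and in 20.8% of all promoters. It was found in 9 of 14 members called higher, 1 of 8 called lower and 8 of 18 not called. The same split was not made over all genes tested, so these few counts have no share to be read against. A match is a description of the letters and not a measured binding site. The half-sites of the IFT-B genes with the largest rises are shown for comparison, with the half-site in capitals.
Ift88 (chr14:57424080-57424109, + strand): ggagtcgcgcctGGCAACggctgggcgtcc
Ift172 (chr5:31291097-31291126, - strand): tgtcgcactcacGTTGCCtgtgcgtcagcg

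Of the 4 polycystin and fibrocystin genes, 2 were higher and 0 lower in old kidneys, and 0 were higher and 1 lower (Pkd1) when a trend with transcript length was removed from each library. Pkhd1 encodes fibrocystin, the membrane protein lost in recessive polycystic kidney disease, and lies on chromosome 1 (20057779 to 20618064, GRCm38). It stood at 179, 153, 160 and 153 normalised counts in the young libraries and at 276, 234, 255, 279 and 294 in the old. The ages did not overlap, and the log2 fold change was 0.73 with a standard error of 0.11 (adjusted p = 1.77e-05, limma). Pkd2 (chromosome 5, 104459450 to 104505819) encodes polycystin-2, a cation channel of the ciliary membrane. Its values were 167, 211, 175 and 181 in young and 242, 241, 261, 281 and 233 in old libraries, all old values lying above all young ones. That is a mean of 183 ± 19.2 (SD, n = 4) against 251 ± 19.3 (SD, n = 5) normalised counts and a log2 fold change of 0.46 ± 0.11 (SE, adjusted p = 0.00183, limma).

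Pkd1 (chromosome 17, 24549834 to 24596508) encodes polycystin-1, the large receptor-like partner of polycystin-2 and the gene most often mutated in dominant polycystic kidney disease. It measured 111, 121, 108 and 134 normalised counts in young and 166, 102, 165, 183 and 139 in old libraries. In 4 of 5 old libraries Pkd1 was above every young one, while old replicate 2 was below them all. The log2 fold change of 0.32 ± 0.16 (SE) was not called (adjusted p = 0.0845, limma). Without old replicate 2 it was 0.46 and called (adjusted p = 0.00618), and over all alternatives the adjusted p ran from 0.00618 to 0.2. The end of Pkd1 meets that of Tsc2 on the opposite strand, and the counting used strand. Pkd2l2, a polycystin-2 relative, was low and had the second smallest change of the members. Its young values were 11.5, 14.6, 13.7 and 5.43 and its old values 8.25, 7.66, 13.2, 14.9 and 9.55, with full overlap and a log2 fold change of -0.03 ± 0.37 (SE, adjusted p = 0.944, limma).

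In the IFT-B complex, the larger changes went both ways. Ift88, a core subunit whose partial loss gives the Oak Ridge polycystic kidney mouse, lies on chromosome 14 (57424062 to 57517936). The values of Ift88 were 28.7, 35.0, 47.1 and 16.3 in young and 80.2, 94.1, 62.9, 69.0 and 78.5 normalised counts in old libraries. All old libraries were above all young ones, although the young values were themselves widely spread. The fold of the means was 2.42, and the log2 fold change of 1.33 ± 0.24 (SE, adjusted p = 0.000108, limma) was the largest rise among the 47 members in that fit. Cep290 had a larger fold of the means (2.51). It also rose more than Ift88 with edgeR (1.33 against 1.28) and DESeq2 (1.34 against 1.29). Ift20 (chromosome 11, 78536361 to 78541737), the small subunit that also sits at the Golgi and escorts membrane cargo to the cilium, went the other way. It stood at 862, 975, 1013 and 835 in young and at 326, 376, 352, 237 and 302 normalised counts in old libraries. Its mean thus fell from 921 ± 86.0 (SD, n = 4) to 319 ± 53.5 (SD, n = 5), a log2 fold change of -1.54 ± 0.12 (SE) with the smallest adjusted p of the members (5.37e-09, limma).

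Ift172, the large peripheral IFT-B subunit, rose from 19.7 ± 3.08 to 42.6 ± 3.36 normalised counts (SD), and Ift80, another peripheral subunit, from 23.7 ± 4.72 to 45.7 ± 6.70. Neither overlapped between ages. Ift81, which binds tubulin together with Ift74, had a log2 fold change of 0.74 (adjusted p = 0.0244, limma) but was not called when young replicate 3 (0.129) or old replicate 5 (0.0603) was left out, in a range of 0.00676 to 0.129 over its alternatives. Ift74 itself was not called (0.16). The rise of Ift46 (0.42, adjusted p = 0.0348, limma) was not called without young replicates 2, 3 or 4 (0.0787, 0.121 and 0.0654) or old replicates 1 or 4 (0.0836 and 0.0863), or with equal table totals (0.0572), in a range of 0.00575 to 0.121. It was also not called with the length trend removed (0.103, limma). Ift52, a core subunit, was lower (-0.48, adjusted p = 0.00703, limma) although old replicate 1 lay within the young range. Its call was lost with the length trend removed (-0.33, adjusted p = 0.0516, limma), in a range of 0.00241 to 0.0516. The GTPase subunits Ift22 (-0.07) and Ift27 (0.05) and the peripheral subunit Ift57 (-0.16) were not called.

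The IFT-A complex, which carries returning trains and brings membrane receptors into the cilium, also split. Ift122, a core subunit, rose from 160 ± 9.82 to 220 ± 32.1 normalised counts (SD; log2 fold change 0.44, adjusted p = 0.00536, limma), with no overlap. Ift43 (chromosome 12, 86082541 to 86162459), the smallest subunit, measured 105, 109, 82.4 and 110 in young and 44.8, 67.8, 58.8, 40.1 and 54.1 in old libraries. Every old library was below every young one, at a log2 fold change of -0.93 ± 0.18 (SE, adjusted p = 0.000168, limma). Ift140 was higher (0.66, adjusted p = 0.0241, limma) with 4 of 5 old libraries above all young ones. Its call was lost without young replicates 1, 3 or 4 (0.0752, 0.0645 and 0.0522) or old replicates 4 or 5 (0.0579 and 0.0547), in a range of 0.00802 to 0.364. The call was also lost with the length trend removed (0.364, limma). Ttc21b, another IFT-A subunit, was not called (0.47, adjusted p = 0.103, limma).

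For the dynein that returns trains to the cell body, the heavy chain gene rose and 2 of 3 genes of smaller subunits fell, although the rise of Dync2h1 was not called once a length trend was removed (0.03, adjusted p = 0.897, limma, in a range from 3.76e-05). Dync2h1 (chromosome 9, 6928503 to 7184446), the motor heavy chain, measured 68.8, 62.2, 45.1 and 53.4 normalised counts in young and 119, 103, 90.3, 102 and 87.0 in old libraries. All 5 old values exceeded the young ones (log2 fold change 0.80 ± 0.16 SE, adjusted p = 0.000336, limma). Dync2li1 (chromosome 17, 84626496 to 84655588), the light intermediate chain that stabilises the heavy chain, measured 94.2, 93.3, 114 and 89.6 in young and 29.5, 60.2, 26.4, 37.3 and 23.3 in old libraries. It was lower in all 5 old libraries, least so in old replicate 2, with a log2 fold change of -1.52 ± 0.23 (SE, adjusted p = 1.48e-05, limma). The intermediate chain gene Dync2i2 (listed in the annotation as Wdr34) fell from 68.7 ± 14.6 to 21.2 ± 4.85 normalised counts (SD; -1.65, adjusted p = 3.65e-06, limma). The other intermediate chain gene, Dync2i1, was not called (-0.06).

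The outward motor, heterotrimeric kinesin, showed smaller differences. Kif3a, its motor subunit whose loss in the tubule abolishes cilia and gives cysts, had the smallest change of all members. It measured 43.4, 31.1, 43.1 and 31.7 in young and 41.3, 28.4, 31.4, 41.0 and 44.6 normalised counts in old libraries, with a mean of 37.3 in both ages (log2 fold change -0.00 ± 0.21 SE, adjusted p = 0.994, limma). Kif3b, the paired motor subunit, was above every young library in 4 of 5 old ones and below them all in old replicate 2, at values of 108, 103, 101 and 98.7 in young and 128, 87.5, 147, 146 and 196 in old. It just missed the threshold (0.41, adjusted p = 0.0522, limma) and passed it without old replicate 2 (0.00222), with edgeR (0.0269) and with DESeq2 (0.0275), over a range of 0.00222 to 0.533. Robust eBayes (0.0456), a pseudocount of 5 (0.0495) and removal of mitochondrial genes (0.0112) also gave Kif3b a call. Kifap3, which links the motor to cargo, was higher (0.49, adjusted p = 0.0200, limma), but not called without young replicates 2 or 4 (0.0528 and 0.0736) or old replicates 3 or 5 (0.0513 and 0.0567), in a range of 0.00449 to 0.0736. Kif3c, an alternative motor subunit, was not called (0.07).

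The BBSome is a coat that moves membrane proteins through the cilium, and its loss causes Bardet-Biedl syndrome, with renal anomalies. Bbs7 had the largest fall of the members, from 11.5, 21.4, 16.7 and 21.7 normalised counts in young to 8.25, 1.09, 6.08, 3.73 and 5.30 in old libraries. The ages did not overlap, and the log2 fold change was -1.79 ± 0.44 (SE, adjusted p = 0.00176, limma), at a level of only a few reads in old kidneys. Bbs7 passed the filter only through the young libraries, so its low level in old kidneys was part of how it entered. Ttc8, another subunit, fell from 41.8 ± 1.81 to 22.8 ± 3.96 (SD; -0.86, adjusted p = 0.00181, limma). Bbs2 was lower (-0.72, adjusted p = 0.0391, limma), but its call was lost without any of young replicates 1, 2 or 3 (0.0803, 0.0702 and 0.112) or old replicates 1 or 4 (0.0912 and 0.0545), in a range of 0.0225 to 0.112. Bbs1, the subunit that binds the GTPase Arl6, was higher (0.61, adjusted p = 0.0231, limma), though not without young replicates 1 or 4 (0.0828 and 0.0520) or old replicate 4 (0.0570), in a range of 0.00663 to 0.202. Bbs1 was also not called with the length trend removed (0.202, limma). Bbs10, a chaperonin-like protein needed for BBSome assembly, was low and higher in old kidneys (1.08, adjusted p = 0.0314, limma). Its call was lost without young replicates 3 or 4 (0.104 and 0.0858) or old replicates 3 or 5 (0.0675 and 0.0790), in a range of 0.0130 to 0.104. Bbs4 (0.29) and Bbs9 (-0.25) were not called.

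The ciliary GTPases diverged as well. Arl3 (chromosome 19, 46531096 to 46573198), which releases lipid-anchored proteins into the cilium, measured 420, 404, 390 and 416 normalised counts in young and 805, 669, 658, 814 and 670 in old libraries. The young values lay close together and every old value was well above them, at a log2 fold change of 0.82 ± 0.10 (SE, adjusted p = 9.45e-07, limma). Arl6 (chromosome 16, 59612949 to 59639391), which recruits the BBSome to membranes and is itself a Bardet-Biedl gene, measured 67.2, 81.6, 64.7 and 67.0 in young and 33.0, 36.1, 39.6, 36.4 and 33.9 in old libraries. Its mean fell from 70.1 ± 7.75 to 35.8 ± 2.54 (SD; log2 fold change -0.95 ± 0.17 SE, adjusted p = 0.000103, limma). Arl13b, the exchange factor of Arl3, was not called (-0.27).

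Of 6 transition zone genes described, 3 were higher and 0 lower. Cep290 (chromosome 10, 100487558 to 100574840), a long coiled-coil protein that tethers membrane to microtubules at the ciliary base, measured 32.8, 34.0, 41.2 and 32.6 in young and 70.7, 83.1, 104, 81.2 and 102 normalised counts in old libraries. The lowest old library stood well above the highest young one, with a log2 fold change of 1.30 ± 0.17 (SE, adjusted p = 3.54e-06, limma). Ahi1, the Joubert syndrome gene (chromosome 10, 20952547 to 21080429) whose promoter window is printed above, measured 54.9, 59.3, 51.0 and 48.9 in young and 93.1, 79.9, 92.3, 84.0 and 99.7 in old libraries. It too was separated by age (0.74 ± 0.15 SE, adjusted p = 0.000341, limma). Rpgrip1l, a scaffold of the transition zone, was higher at 1.02 (adjusted p = 0.00197, limma), without overlap.

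The tectonic genes Tctn1 (0.12), Tctn2 (-0.35) and Tctn3 (0.13) were not called, and Tctn1 shares 53 identical bases with Chpt1. Of the basal body genes, Ofd1 was not called (0.38) and Alms1, lost in Alstrom syndrome, was not called (0.71, adjusted p = 0.113, limma) except without old replicate 2 (0.0346, in a range of 0.0346 to 0.890).

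**Figure D2:**
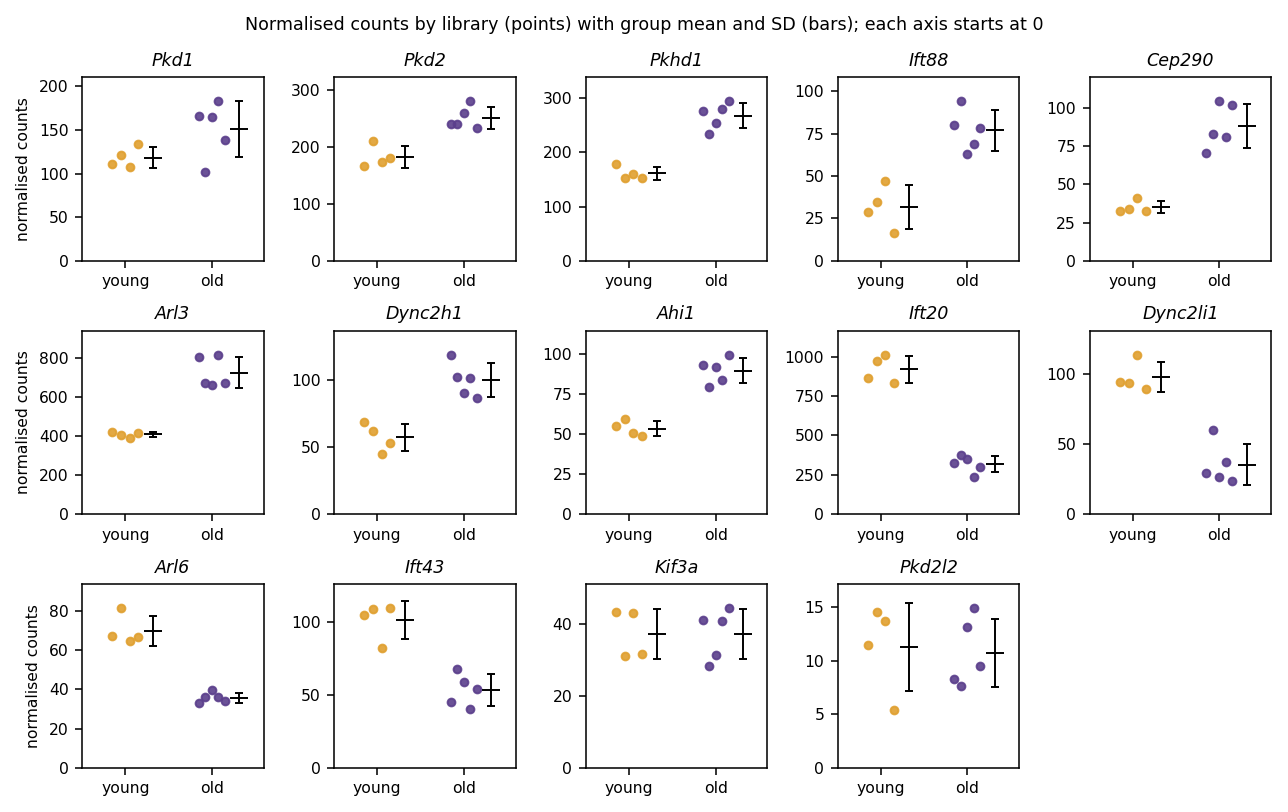
Normalised counts (y axes, each from 0) of 14 members in the 4 young (yellow) and 5 old (purple) libraries, with the mean and SD of each age in black. Ift88, Cep290, Arl3, Ift20, Dync2li1 and Arl6 are separated by age in every library, whereas Pkd1 has 1 old library below the young ones and Kif3a and Pkd2l2 overlap fully.

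The pairs compared next are partners of a complex, except Arl3 and Arl6, which are separate GTPases. Ratios within a library were computed for these 5 pairs, chosen after their values were seen and given without a test. Each is a log2 ratio of normalised counts plus 1, nearly independent of the size factor of the library, and is read for its difference between libraries only. Dync2h1 over Dync2li1 ran from -1.32 to -0.45 in young and from 0.76 to 1.98 in old libraries, with the loss of the rise of Dync2h1 under the length correction applying here too. Ift88 over Ift20 ran from -5.59 to -4.40 and from -2.47 to -1.76. For Ift122 over Ift43 the ranges were 0.55 to 0.83 and 1.34 to 2.63, and for Arl3 over Arl6 they were 2.29 to 2.63 and 4.02 to 4.57. Each of these pairs set a member that rose without overlap over one that fell without overlap, so the ranges had to lie apart. Pkd2 and Pkd1 both had positive log2 fold changes (0.46 and 0.32). Pkd2 over Pkd1 was 0.43 to 0.79 in young and 0.54 to 1.23 in old libraries, with overlap.

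**Figure D3:**
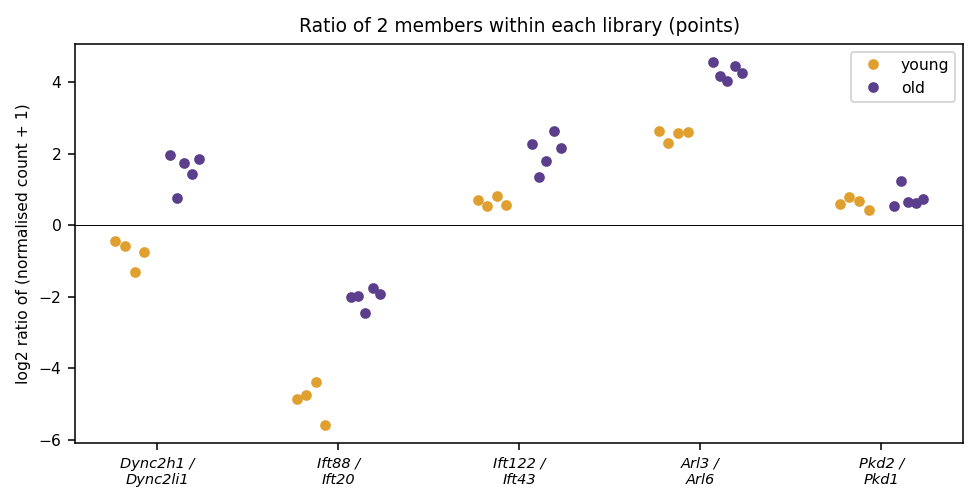
Log2 ratio (y axis) of 2 members within each of the 4 young (yellow) and 5 old (purple) libraries, for 5 pairs chosen after their values were seen. The ages are apart in the 4 pairs that set a member called higher over one called lower, which that choice of pairs fixed. Pkd2 over Pkd1, both with positive log2 fold changes, overlaps, with old replicate 2 at 1.23 above the rest.

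The members called higher had longer transcripts than those called lower. Over the 47 members, Spearman's correlation between log2 fold change and the length of the longest coding transcript was 0.61, and over 12457 tested genes with a length it was 0.28, as a description across genes that share the same libraries. Of 24 members at or above the members' median length of 3528 bases, 14 were higher and 0 lower, where 40.0% of all genes that long were higher and 19.5% lower. Of the 23 shorter members 4 were higher and 10 lower, where 21.7% of all shorter genes were higher and 38.3% lower. Arl3, at 1005 bases, was the shortest member to rise, and Ift20 (1141) and Ift43 (783) were among the shortest to fall.

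With a smooth length trend removed from each library, 22 of 47 members (46.8%) were called, 12 higher and 10 lower, against 7154 of 12457 genes (57.4%), and the members' median log2 fold change was 0.08. Of the 18 rises 12 remained called, and of the 10 falls 9. The correction depends on transcript length alone, so the shift of a member follows from its length. The largest shifts were those of Dync2h1, Pkd1, Pkhd1 and Alms1, the 4 longest members. Pkhd1 (12935 bases) went from 0.73 to 0.01 (adjusted p = 0.943, limma, the top of a range from 1.27e-08) and Dync2h1 (14264 bases) from 0.80 to 0.03 (0.897, in a range from 3.76e-05). Pkd1 (14164 bases) turned from 0.32 to -0.44 and was then called lower (0.0285), and Alms1 (11163 bases) went from 0.71 to 0.08. Pkd2 (5219 bases) shifted less, from 0.46 to 0.22, and lost its call (0.0957, in a range from 0.000184). Bbs1, Ift140, Ift46 and Ift52 also lost their calls, at 0.33, 0.27, 0.32 and -0.33. In contrast, Ift88 (1.38), Cep290 (0.82), Arl3 (1.24), Ift20 (-1.14), Dync2li1 (-1.18), Dync2i2 (-1.42) and Bbs7 (-1.69) stayed called. The part of transcript length in these differences was not tested beyond this.

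**Figure D4:**
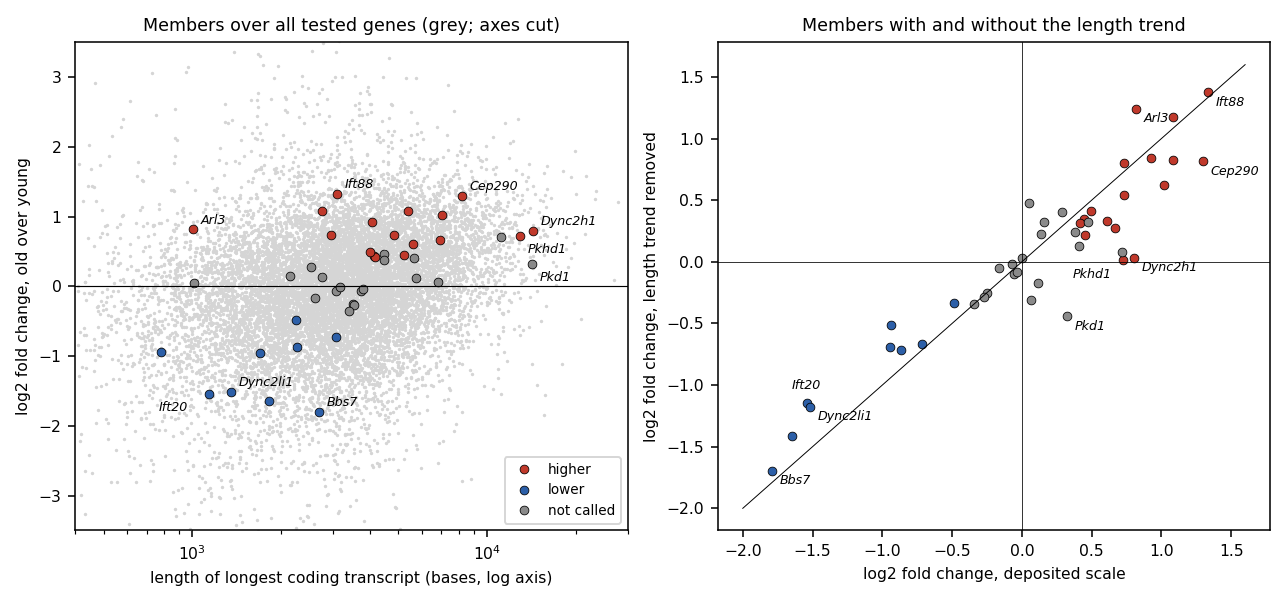
Left, log2 fold change of old over young (y axis) against the length of the longest coding transcript in bases (x axis, log scale) for all tested genes (grey) and 45 members, red where called higher, blue where called lower and dark grey where not called. Right, the members' log2 fold change after a length trend was removed (y axis) against the value on the deposited scale (x axis) with the line of equality, where Pkhd1 and Dync2h1 drop to near 0 and Pkd1 below it.

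Under all alternatives in which they were tested, 15 of the 26 called members named here kept their call and direction. The 8 higher ones were Ahi1, Arl3, Cep290, Ift122, Ift172, Ift80, Ift88 and Rpgrip1l, and the 7 lower ones were Arl6, Bbs7, Dync2i2, Dync2li1, Ift20, Ift43 and Ttc8. Of these, Bbs7 had entered the fit only through its young libraries. Among the old libraries, replicate 2 was the one nearest to the young level in 9 of the 28 called members and in 37.5% of all called genes.

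Ciliary genes outside the naming rule, from lists chosen by function, were called in both directions, as were all genes tested (29.2% higher and 30.5% lower). Of 18 further transport genes 3 were higher and 9 lower, with a median log2 fold change of -0.39. Hspb11, an IFT-B subunit, was lower (-2.44), as was the dynein light chain gene Dynlt2b (-1.65), while Bbip1, the smallest BBSome subunit, was higher (1.18). Of 37 other transition zone and nephronophthisis genes 6 were higher and 12 lower, with a median of 0.03, and the lower ones included Inpp5e, the ciliary phosphoinositide phosphatase (-2.20), Unc119b, a carrier of lipid-anchored cargo (-2.61), and Glis2 (-1.32). Centriole, basal body and ciliogenesis genes had 21 of 52 higher, 12 lower and a median of 0.29. Pcm1, the scaffold of centriolar satellites (1.44), Cep350 (1.10) and Kif2a (0.98) were the strongest calls by moderated t.

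Of 18 Hedgehog pathway genes, which signal through the cilium, 6 were higher and 4 lower (median -0.08), with Smo, the ciliary signal transducer, lower (-1.35) and Gsk3b (1.16) and Btrc (1.38) higher. Of 30 other cystic disease and polycystin partner genes 5 were higher and 12 lower (median -0.19). The strongest calls by moderated t were the falls of Fh1 (-2.53), Flcn (-2.11) and Sec61b (-1.65), which act in fumarate metabolism, nutrient signalling and protein translocation. By log2 fold change Cys1 (-1.86) fell more than Sec61b. Of 10 tested genes in a list of RFX and FOXJ1 factors 2 were higher and 3 lower (median -0.22), with Rfx1 at 0.70, Rfxank at -1.07 and E2f4 at -1.73. Foxj1 was not among the tested genes, and Rfx2 (0.39) and Rfx3 (-0.44) were not called. That list was not limited to regulators of ciliary genes, Rfxank being 1 that is not specific to them. Of 20 tubulin and tubulin-modifying genes 5 were higher and 7 lower (median -0.27), among them Tuba1c (0.72), Tubb2a (-1.52) and Tpgs1 (-0.95). Multiciliated cells, which carry motile cilia, were represented by few genes. Of 42 motile cilium genes 5 were listed and 4 tested, with 0 of them higher and 2 lower, Zmynd10 (-0.96) and Hydin (-1.55), which averaged only 15.4 normalised counts in young kidneys.

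Markers of kidney cell types, among them types with and without primary cilia, were also called, and their part in the members' differences was not tested. All 12 proximal tubule markers were listed, 4 higher and 6 lower, with a summed level of 192293 to 227578 normalised counts in young and 136036 to 184132 in old libraries. Most of that sum was Kap, and the other 11 markers summed to 51247 to 54141 in young and 50413 to 61081 in old libraries, with overlap. Thick ascending limb markers were higher in 3 of 8 and lower in 0 (9973 to 11128 against 12581 to 17233), and distal convoluted tubule markers higher in 3 and lower in 2 of 6 (4499 to 5634 against 6764 to 7863). Intercalated cell markers were lower in 6 of 8 and higher in 1 (1008 to 1200 against 712 to 875), and principal cell markers lower in 5 of 10 and higher in 1 (2522 to 3221 against 1385 to 3950). For podocytes 4 of 8 were higher and 1 lower (982 to 1017 against 1100 to 1328), for endothelium 6 of 10 were higher and 0 lower (2028 to 2200 against 2555 to 2940), and for leukocytes 5 of 10 were higher and 0 lower (1180 to 1416 against 1523 to 2151). Fibroblast and mural markers split 4 to 4 of 10 (1944 to 2407 against 1633 to 2470), adipocyte markers had 0 higher and 1 lower of 5 (699 to 2232 against 309 to 2447), and injured tubule markers 4 higher and 1 lower of 7 (2181 to 2452 against 2732 to 3183). Without their most abundant marker, the sums of the distal convoluted tubule (Slc12a3), podocyte (Synpo) and injured tubule (Clu) lists overlapped between ages, and those of principal cells (Aqp2) did not, at 1712 to 1938 in young and 917 to 1683 in old libraries.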

How the data were processed

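Kidney RNA of wild-type mice was sequenced from 3′ ends with oligo(dT)-primed, stranded QuantSeq libraries. The kit version differs between the labels and the study's methods. Per the study's methods and the submitters' processing notes, the authors aligned reads to GRCm39 with TopHat2 (2.0.10) and counted them by strand with HTSeq (0.6.1) on GENCODE vM26. The deposited values are a signal: counts divided by 1 size factor per library. Whole reads were recovered for 100% of values within a tolerance of 0.01. No listed gene averaged under 4.49 normalised counts, so low genes had been removed before deposition by a rule that the sources used here do not give.

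Groups came from the ages in the labels, and library numbers follow the listed order. Genes that reached 10 normalised counts in 4 or more of the 9 libraries were fitted with limma 3.58.1 (trend, R 4.3.3) on log2(normalised count + 1), which understates changes of low genes, with two-sided p-values adjusted by Benjamini-Hochberg over 12667 genes at 0.05. The 3-read floor covers counting error only, because amplified reads carried no molecular identifiers. In a simulation with known fold changes the fit was checked before use.

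Alternatives were pseudocounts of 0.1 and 5, no filter, a filter on the mean (100 or more normalised counts), TMM factors, equal table totals, removal of mitochondrial genes with rescaling of the others, edgeR 4.0.16 and DESeq2 1.42.0 on the whole reads, robust eBayes, a length trend removed by lowess (span 0.3), and each library left out with the filter kept. Positions and lengths came from GENCODE vM21 on GRCm38, matched by symbol, which is not the authors' build. Values in every library were given by rule for Pkd1, Pkd2, Pkhd1, the 5 largest rises and 5 largest falls among called members that averaged 50 or more normalised counts, and the 2 members with the smallest change. Of the 47 members, 2 are counted in totals but not reported here. Bbs7 and Kif3b were added after their values were seen. From each other ciliary list at most the 3 called genes with the largest moderated t were named. The members, gene lists, marker lists and motifs were chosen with earlier results of these data known.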

Additional observations from a re-analysis of the deposited data

Results flagged for a closer look

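Among the 16 members with values given in every library and the share of reads in members, 34 groups of 4 or 5 libraries were examined for 1 library far from the rest. The measure was the gap between that library and its closest neighbour, on the log2 scale, divided by the whole range of the age group. Chance flags about 1 in 20 groups, or 1.7 here, and 2 were found. Arl6 stood at 81.6 normalised counts in young replicate 2, above the other young libraries, with a gap of 0.841 of the range. Ift43 stood at 82.4 normalised counts in young replicate 3, below the other young libraries, with a gap of 0.846 of the range. Both genes kept their calls without these libraries.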

How the results depend on the processing

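The counts of called genes and of called members stayed within 1.5 times their main values under all alternatives but the stricter filter (an average of 100 or more normalised counts), with which fewer genes were tested. There 4101 genes in all and 7 members were called, 5 of these members higher and 2 lower. Leaving out 1 library gave 6900 to 7626 called genes and 23 to 31 called members, 13 to 21 of them higher and 8 to 10 lower. Members near no change turned direction without a call: Kif3a was 0.14 with mitochondrial genes left out, 0.0026 with edgeR, 0.0019 with DESeq2, 0.033 with the length trend removed and -0.082 to 0.088 with 1 library left out. Pkd2l2 was 0.10 with mitochondrial genes left out and -0.32 to 0.11 with 1 library left out. Pkd1 was -0.44 and called lower with the length trend removed, and was called higher with mitochondrial genes left out (0.47). Leaving out 1 library moved Pkd1 between 0.25 and 0.46. The cause of these changes was not tested. Ttc21b was called higher (adjusted p = 0.0364, in a range of 0.0364 to 0.349) and Bbs2 lost its call (0.0933) with mitochondrial genes left out. Few reads limit members such as Bbs7, Bbs10 and Pkd2l2. No paired analysis was possible because the young and old libraries came from different mice.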
